A study of Mus musculus with 12 samples.

Results

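The genes described here are the chemokines, interleukins and tumor necrosis factor (TNF) superfamily members, with their receptors, among the mRNAs of isolated glomeruli from eNOS-/- mice. They were chosen by a pattern in the symbol, with 1 matching gene left out: Ccl, Cxcl, Cx3cl, Il or Tnfsf followed by a digit for ligands, and Ccr, Cxcr, Cx3cr, Ackr, Tnfrsf or an interleukin symbol marked as a receptor for receptors. Of the 14096 genes in the deposited tables, 72 were members, 26 of them ligands (12 chemokines, 10 interleukins and 4 TNF superfamily ligands) and 46 receptors (7 chemokine, 25 interleukin and 14 TNF receptors). Ccl2, Ccl5, Il6, Tnfsf13b and Ackr1 are not analysed here. All 72 members had at least 10 reads in every mouse, with 27 to 11164 reads, rounded, per gene and mouse.

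The mice were male eNOS-/- animals on the C57BL/6J strain, which lack endothelial nitric oxide synthase, and this deletion was shared by all 4 groups, so no group stands for wild-type mice. Diabetes was induced in mice of 8 weeks with 5 daily injections of streptozotocin (STZ), a toxin of pancreatic beta cells, at 50 mg/kg. Nondiabetic animals were given citrate buffer in its place. From 10 weeks after induction the mice received daily for 8 weeks, by gavage, either arctigenin (ATG), a plant lignan, at 40 mg/kg or the 5% DMSO vehicle, and they were killed at 18 weeks. Each group held 3 mice: vehicle-treated nondiabetic, ATG-treated nondiabetic, vehicle-treated diabetic and ATG-treated diabetic mice, listed below always in replicate order 1, 2, 3. In each nondiabetic group replicate 3 is the mouse whose label carries no number.

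Chemokines are small secreted proteins that steer leukocytes along gradients through G protein-coupled receptors, while the atypical receptors of the Ackr group bind chemokines without that signal and remove them. Interleukins act through receptors built from ligand-specific and shared chains, and TNF superfamily ligands act through trimeric receptors that engage NF-kB signaling or cell death. In the glomerulus such signals pass between endothelial cells, mesangial cells, podocytes and the few resident or infiltrating leukocytes, and circulating TNF receptors are known markers of progression in diabetic kidney disease.

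Values are the deposited log2 values, which on the linear scale are, for most genes, whole reads times a single factor per library and are not divided by gene length. Levels of different genes were therefore compared only as scaled reads per kb of transcript (the value on the linear scale divided by the deposited transcript length), averaged over the 12 mice. The median member stood at the 25.2 percentile of all listed genes on that scale. The most abundant ligands were Cx3cl1 (fractalkine, a chemokine made as a membrane-bound adhesion protein) at 1672 scaled reads per kb, Cxcl13 (the B-cell chemoattractant) at 1424 and Tnfsf12 (TWEAK) at 1367, followed at a distance by Il34 (a ligand of the colony-stimulating factor 1 receptor) at 476 and Il18 (a cytokine released after inflammasome cleavage) at 464. The most abundant receptors were Tnfrsf12a (Fn14, the TWEAK receptor) at 2258 scaled reads per kb, Tnfrsf1a (TNF receptor 1) at 2041, Il6st (gp130, the signaling chain shared by the IL-6 family) at 1734, Il10rb (the shared chain of the IL-10 and interferon-lambda receptors) at 1361 and Tnfrsf21 (death receptor 6) at 1207. The medians were 149 for ligands and 111 for receptors. TWEAK and its receptor thus both stood in the top 5 of their class, whereas the fractalkine receptor Cx3cr1, a receptor of monocytes and macrophages, had a level of 42.0 scaled reads per kb.

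**Figure D1:**
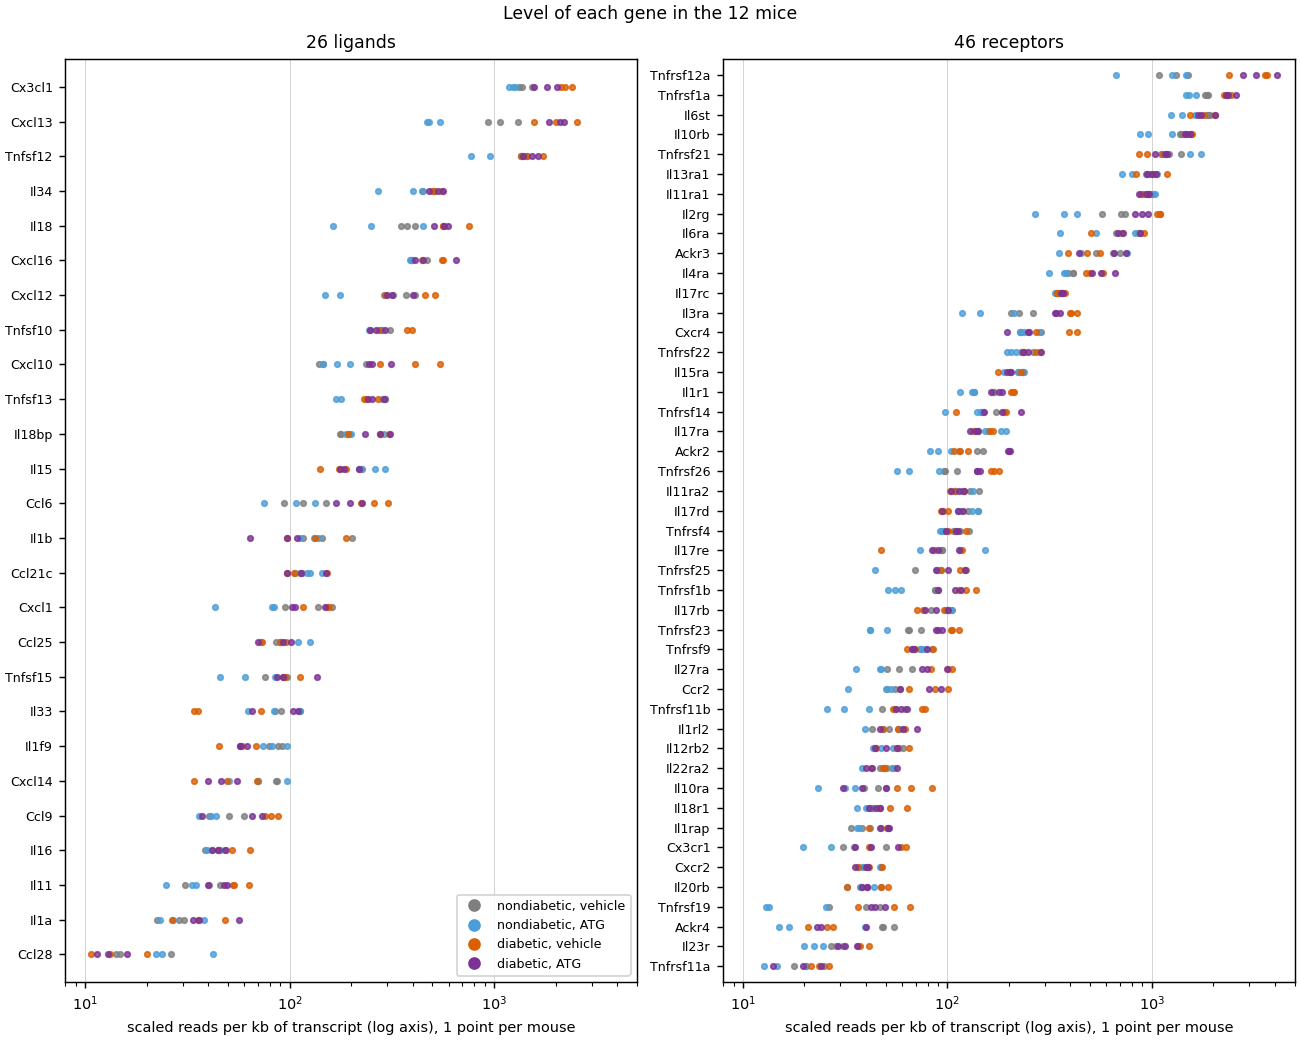
Level of the 26 ligands (left) and 46 receptors (right) in scaled reads per kb of transcript on a log axis, 1 point per mouse, colored by group and ordered by the mean over 12 mice. The ligand means reach 1672 (Cx3cl1), and receptor means run from 20.0 (Tnfrsf11a) to 2258 (Tnfrsf12a).

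The groups were compared with limma on these log2 values, all 12 mice entering a single fit of the 4 groups and Benjamini-Hochberg adjustment over all 14096 genes. A gene was called a differentially expressed gene (DEG) at an adjusted p under 0.05, and every adjusted p below is from that fit. Fold changes are given as log2 differences with the standard error (SE) of the fit, n = 3 mice per group.

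Vehicle-treated diabetic mice had higher mRNA values of several leukocyte-attracting chemokines and TNF receptors than vehicle-treated nondiabetic mice in the fit without covariates. Of the 72 members, 17 (23.6%) were DEGs, against 18.9% of all listed genes. Of these, 14 (19.4%) rose, against 10.2% of all genes, and 3 (4.17%) fell, against 8.63% of all genes. The ligands Cxcl10, Ccl6, Cxcl13 and Cx3cl1 rose and the ligands Il33 and Il1f9 fell (6 of 26). Among receptors 10 of 46 rose (Tnfrsf12a, Il3ra, Tnfrsf26, Il27ra, Il2rg, Tnfrsf23, Tnfrsf1b, Il1r1, Il4ra and Tnfrsf1a), and 1 fell, Il17rd. The median log2 fold change was 0.14 over the members, 0.18 over the ligands and 0.13 over the receptors, beside 0.0075 over all genes, and 49 members had a positive value and 23 a negative value. These calls depend on the fit, in which 2659 of all genes were DEGs. With the mean of 42 kidney tubule markers as a covariate 1 member, Cxcl10, was a DEG (453 of all genes). Without replicate 1 of the vehicle-treated nondiabetic mice 7 members (801 of all genes) passed, or 11 (1003 of all genes) without replicate 1 of the vehicle-treated diabetic mice. The count of members that fell was 0 without vehicle-treated nondiabetic replicate 1 or 2 or vehicle-treated diabetic replicate 3, 1 without vehicle-treated nondiabetic replicate 3, and 5 and 6 without ATG-treated nondiabetic replicates 2 and 3.

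Of the 12 chemokine ligands 4 rose, against 10.2% of all genes, and 8 did not pass, and Cx3cl1 (positions 94772180 to 94782427 on chromosome 8, build GRCm38.p6 here and below) was the member with the lowest p. Its log2 values were 12.02, 12.06 and 12.23 in vehicle-treated nondiabetic mice and 12.88, 12.71 and 12.77 in vehicle-treated diabetic mice. They were 11.95, 11.92 and 11.87 in ATG-treated nondiabetic mice and 12.64, 12.27 and 12.49 in ATG-treated diabetic mice. Every diabetic mouse lay above every nondiabetic mouse, and with vehicle Cx3cl1 rose by 0.68 ± 0.09 on the log2 scale, or 1.60-fold (limma adjusted p = 0.00279).

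Cxcl13 (chromosome 5, 95956939 to 95961068) was lowest in ATG-treated nondiabetic mice and highest in the diabetic mice. Its values with vehicle were 10.27, 10.57 and 10.09 in nondiabetic mice and 11.53, 10.84 and 11.19 in diabetic mice. With ATG they were 9.31, 9.09 and 9.12 in nondiabetic mice and 11.31, 11.25 and 11.07 in diabetic mice. The diabetic groups overlapped each other, and both lay above the nondiabetic groups, which were themselves separate. With vehicle, Cxcl13 rose by 0.88 ± 0.17 with diabetes (limma adjusted p = 0.00799).

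Cxcl10 (chromosome 5, 92346638 to 92348889), an interferon-induced chemokine for activated T cells through CXCR3, read 7.32, 8.02 and 7.26 in vehicle-treated nondiabetic mice and 8.82, 9.23 and 8.24 in vehicle-treated diabetic mice. In ATG-treated mice Cxcl10 was 7.76, 7.33 and 7.55 without diabetes and 8.44, 8.06 and 8.12 with diabetes. The lowest vehicle-treated diabetic mouse stood only just above the highest nondiabetic mouse, and the rise was 1.23 ± 0.26 (2.35-fold, limma adjusted p = 0.0116). Ccl6, a mouse chemokine of macrophages and neutrophils, rose by 1.13 ± 0.23 (2.19-fold, limma adjusted p = 0.0103). Its relative Ccl9 had a log2 fold change of 0.72 ± 0.23 that did not pass (limma adjusted p = 0.0524), with no overlap between the groups.

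The other chemokine ligands with a known glomerular role did not pass. Cxcl1, a neutrophil chemoattractant, was 6.50, 7.25 and 7.03 in vehicle-treated nondiabetic mice, 6.28, 6.31 and 5.35 in ATG-treated nondiabetic mice, 7.21, 7.18 and 6.78 in vehicle-treated diabetic mice and 7.14, 6.61 and 6.66 in ATG-treated diabetic mice. Cxcl12, the podocyte-derived ligand of CXCR4, was 9.44, 9.58 and 9.24, then 8.38, 9.09 and 8.13, then 9.76, 9.10 and 9.92, then 9.13, 9.21 and 9.56 in the same order of groups. Cxcl16, a membrane-bound chemokine and scavenger receptor, was 9.90, 10.17 and 9.92, then 9.90, 9.91 and 9.92, then 10.42, 10.42 and 10.08, then 10.64, 9.98 and 10.11. For all 3 genes the vehicle-treated groups overlapped, with log2 fold changes for diabetes of 0.13 ± 0.29 (Cxcl1), 0.17 ± 0.26 (Cxcl12) and 0.31 ± 0.16 (Cxcl16). All 3 ATG-treated nondiabetic mice had less Cxcl1 and less Cxcl12 than any vehicle-treated nondiabetic mouse, which did not pass the test (limma adjusted p = 0.0724 and 0.0671).

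**Figure D2:**
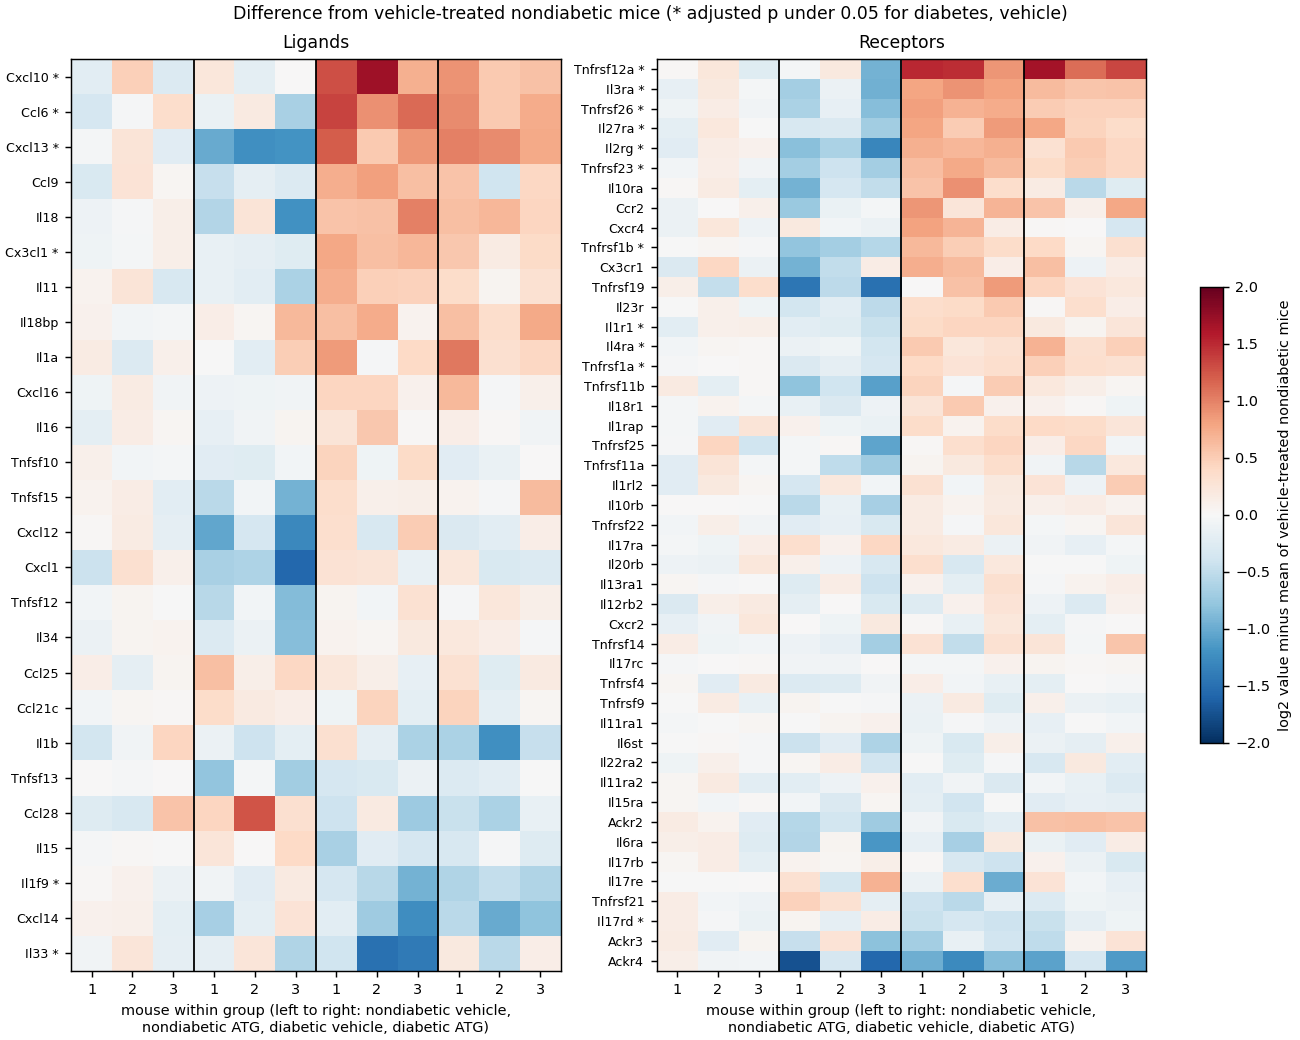
Log2 value of each member in each of 12 mice minus its mean in vehicle-treated nondiabetic mice, for ligands (left) and receptors (right), ordered by the diabetes log2 fold change with vehicle. Color runs from −2 (blue) to 2 (red), vertical lines divide the 4 groups, and asterisks mark the 17 DEGs of that comparison, which lie mainly at the top of both panels.

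Of the 10 interleukin ligands 2 fell, against 8.63% of all genes, and 8 did not pass. Il33, an alarmin held in cell nuclei and released on damage, read 7.86, 8.17 and 7.75 in vehicle-treated nondiabetic mice and 7.53, 6.44 and 6.51 in vehicle-treated diabetic mice. In ATG-treated mice, it was 7.75, 8.17 and 7.32 without diabetes and 8.13, 7.39 and 8.06 with diabetes. Replicates 2 and 3 of the vehicle-treated diabetic mice stood below every other mouse, and Il33 fell by 1.10 ± 0.32 with diabetes (limma adjusted p = 0.0353). Il1f9, the gene of IL-36 gamma, read 7.18, 7.24 and 7.03 in vehicle-treated nondiabetic mice, 7.08, 6.93 and 7.32 in ATG-treated nondiabetic mice, 6.82, 6.59 and 6.21 in vehicle-treated diabetic mice and 6.55, 6.67 and 6.55 in ATG-treated diabetic mice. All 6 diabetic mice lay below all 6 nondiabetic mice, and with vehicle Il1f9 fell by 0.61 ± 0.17 (limma adjusted p = 0.0291).

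Il18 and Il1b, the interleukins matured by caspase-1, did not pass. Il18 was 8.25, 8.34 and 8.48 in vehicle-treated nondiabetic mice, 7.76, 8.61 and 7.14 in ATG-treated nondiabetic mice, 8.92, 8.94 and 9.36 in vehicle-treated diabetic mice and 8.95, 9.02 and 8.78 in ATG-treated diabetic mice. Il1b was 7.29, 7.59 and 8.09, then 7.54, 7.25 and 7.47, then 7.98, 7.48 and 7.03, then 7.03, 6.43 and 7.20. The vehicle-treated groups did not overlap for Il18, at a log2 fold change of 0.72 ± 0.28 (limma adjusted p = 0.0977), and overlapped for Il1b, at −0.16 ± 0.28. The log2 values of Il34 were 9.60, 9.79 and 9.79 in vehicle-treated nondiabetic mice and 9.79, 9.76 and 9.91 in vehicle-treated diabetic mice, with 9.45, 9.61 and 8.88 and then 9.94, 9.85 and 9.70 in the ATG-treated nondiabetic and diabetic mice. With vehicle its groups overlapped, at a log2 fold change of 0.10 ± 0.16.

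No TNF superfamily ligand was a DEG for diabetes with vehicle. Tnfsf12 (TWEAK) read 11.16, 11.27 and 11.22 in vehicle-treated nondiabetic mice, 10.66, 11.16 and 10.35 in ATG-treated nondiabetic mice, 11.27, 11.16 and 11.52 in vehicle-treated diabetic mice and 11.20, 11.44 and 11.34 in ATG-treated diabetic mice. Tnfsf10 (TRAIL, a ligand of death receptors) read 10.58, 10.43 and 10.45, then 10.26, 10.24 and 10.44, then 10.94, 10.40 and 10.87, then 10.25, 10.35 and 10.50 in that order. Their log2 fold changes for diabetes were 0.10 ± 0.17 and 0.25 ± 0.13, and the vehicle-treated groups overlapped for both.

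Of the 14 TNF receptors 5 rose, against 10.2% of all genes, and they made up 5 of the 10 receptors that rose. Tnfrsf12a (chromosome 17, 23675445 to 23677449) was 10.30, 10.51 and 10.03 in vehicle-treated nondiabetic mice and 11.80, 11.76 and 11.16 in vehicle-treated diabetic mice. With ATG it was 10.24, 10.48 and 9.33 in nondiabetic mice and 11.94, 11.40 and 11.61 in diabetic mice. The rise with vehicle was 1.29 ± 0.28, or 2.45-fold (limma adjusted p = 0.0129), beside 0.10 ± 0.17 for its ligand Tnfsf12.

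Both classical TNF receptors rose by smaller amounts with a tighter spread. Tnfrsf1a (chromosome 6, 125349723 to 125362483), the receptor found on most cells, was 11.94, 11.98 and 11.99 in vehicle-treated nondiabetic mice, 11.68, 11.79 and 11.64 in ATG-treated nondiabetic mice, 12.36, 12.24 and 12.30 in vehicle-treated diabetic mice and 12.44, 12.31 and 12.28 in ATG-treated diabetic mice. Tnfrsf1b (chromosome 4, 145212368 to 145246870), the receptor of leukocytes and endothelial cells, was 8.75, 8.79 and 8.74, then 7.97, 8.09 and 8.19, then 9.41, 9.25 and 9.13, then 9.16, 8.80 and 9.07. For both genes the order was the same, with ATG-treated nondiabetic mice lowest, vehicle-treated nondiabetic mice next and every diabetic mouse above them. With vehicle, diabetes raised Tnfrsf1a by 0.33 ± 0.07 (limma adjusted p = 0.00936) and Tnfrsf1b by 0.51 ± 0.11 (limma adjusted p = 0.0127).

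Tnfrsf23 and Tnfrsf26, near each other on chromosome 7 and mouse relatives of the TRAIL receptors, rose as well. Tnfrsf23 was 7.77, 7.96 and 7.75 in vehicle-treated nondiabetic mice, 7.14, 7.41 and 7.14 in ATG-treated nondiabetic mice, 8.45, 8.59 and 8.46 in vehicle-treated diabetic mice and 8.21, 8.31 and 8.24 in ATG-treated diabetic mice. The 4 groups did not overlap anywhere, and the rise with vehicle was 0.67 ± 0.10 for Tnfrsf23 (limma adjusted p = 0.00435) beside 0.75 ± 0.15 for Tnfrsf26 (limma adjusted p = 0.0094). Tnfrsf22, which lies between them, had a log2 fold change of 0.12 ± 0.10. These are similar genes, and how the authors' counting divided shared reads between them is not given in the sources used here.

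Tnfrsf21 and the decoy Tnfrsf11b did not pass for diabetes with vehicle. Tnfrsf21 was 12.30, 12.11 and 12.06 in vehicle-treated nondiabetic mice, 12.62, 12.45 and 11.98 in ATG-treated nondiabetic mice, 11.74, 11.62 and 11.99 in vehicle-treated diabetic mice and 11.88, 12.07 and 12.03 in ATG-treated diabetic mice. Tnfrsf11b (osteoprotegerin, a soluble trap for RANK ligand and TRAIL) was 7.44, 7.08 and 7.28, then 6.46, 6.86 and 6.18, then 7.72, 7.25 and 7.77, then 7.48, 7.39 and 7.30. The log2 fold changes for diabetes were −0.37 ± 0.15 (limma adjusted p = 0.109) and 0.31 ± 0.19 (limma adjusted p = 0.272).

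Of the interleukin receptor chains, 5 of 25 rose with diabetes and 1 fell, against 10.2% and 8.63% of all genes. Il2rg (X chromosome, 101264385 to 101268255), the common gamma chain of the IL-2, IL-4, IL-7, IL-9, IL-15 and IL-21 receptors, was 9.79, 10.17 and 10.10 in vehicle-treated nondiabetic mice, 9.19, 9.39 and 8.71 in ATG-treated nondiabetic mice, 10.74, 10.69 and 10.74 in vehicle-treated diabetic mice and 10.33, 10.54 and 10.44 in ATG-treated diabetic mice. Again no 2 groups overlapped, and the rise with vehicle was 0.70 ± 0.15 (limma adjusted p = 0.0133). Il3ra, the IL-3 receptor alpha chain, rose by 0.84 ± 0.18 (limma adjusted p = 0.0123), and Il27ra, a chain of the IL-27 receptor, rose by 0.72 ± 0.17 (limma adjusted p = 0.0169). The IL-4 receptor alpha chain Il4ra rose by 0.35 ± 0.11, close to the threshold (limma adjusted p = 0.047).

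Il1r1, the signaling receptor for IL-1, was 9.31, 9.64 and 9.64 in vehicle-treated nondiabetic mice, 9.32, 9.29 and 9.09 in ATG-treated nondiabetic mice, 9.92, 9.97 and 9.96 in vehicle-treated diabetic mice and 9.72, 9.59 and 9.78 in ATG-treated diabetic mice, and it rose by 0.42 ± 0.10 (limma adjusted p = 0.0189). Il17rd, which also restrains fibroblast growth factor signaling, was 10.18, 10.01 and 9.90, then 10.09, 9.85 and 10.18, then 9.58, 9.70 and 9.62, then 9.59, 9.86 and 9.94, and it fell by 0.40 ± 0.11 (limma adjusted p = 0.034). Both changes were without overlap between the vehicle-treated groups.

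The IL-6 and IL-10 receptor chains did not pass for diabetes with vehicle. Il6st was 13.33, 13.37 and 13.31 in vehicle-treated nondiabetic mice, 12.91, 13.11 and 12.72 in ATG-treated nondiabetic mice, 13.26, 13.04 and 13.45 in vehicle-treated diabetic mice and 13.21, 13.16 and 13.44 in ATG-treated diabetic mice. Il10rb was 11.33, 11.33 and 11.32, then 10.79, 11.18 and 10.67, then 11.49, 11.39 and 11.51, then 11.43, 11.47 and 11.40. Its partner in the IL-10 receptor, Il10ra, found mainly on leukocytes, was 7.32, 7.45 and 7.10, then 6.34, 6.96 and 6.79, then 7.85, 8.20 and 7.64, then 7.45, 6.74 and 7.05. With vehicle the log2 fold changes were −0.09 ± 0.12 (Il6st), 0.14 ± 0.11 (Il10rb) and 0.61 ± 0.22 (Il10ra, limma adjusted p = 0.0752).

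No chemokine receptor was a DEG for diabetes with vehicle. Ccr2, the receptor of inflammatory monocytes, was 7.50, 7.63 and 7.72 in vehicle-treated nondiabetic mice, 6.87, 7.49 and 7.58 in ATG-treated nondiabetic mice, 8.50, 7.87 and 8.29 in vehicle-treated diabetic mice and 8.19, 7.72 and 8.39 in ATG-treated diabetic mice. Cx3cr1 was 6.86, 7.56 and 7.04, then 6.21, 6.67 and 7.30, then 7.88, 7.79 and 7.29, then 7.75, 7.05 and 7.31. Cxcr4, the signaling receptor of CXCL12, was 8.69, 9.02 and 8.70, then 8.99, 8.75 and 8.68, then 9.61, 9.48 and 8.94, then 8.82, 8.81 and 8.47. The vehicle-treated groups were separate for Ccr2 (0.60 ± 0.23, limma adjusted p = 0.0845) and overlapped for Cx3cr1 (0.50 ± 0.30) and Cxcr4 (0.54 ± 0.18, limma adjusted p = 0.0538).

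Of the atypical receptors, Ackr3, which scavenges CXCL12, was 10.66, 10.27 and 10.55 in vehicle-treated nondiabetic mice, 10.03, 10.77 and 9.67 in ATG-treated nondiabetic mice, 9.81, 10.34 and 10.12 in vehicle-treated diabetic mice and 10.00, 10.57 and 10.77 in ATG-treated diabetic mice. Ackr4, which scavenges CCL19, CCL21 and CCL25, was 6.85, 6.66 and 6.67, then 4.99, 6.39 and 5.15, then 5.76, 5.46 and 5.86, then 5.66, 6.40 and 5.60. Its 3 vehicle-treated nondiabetic mice lay above the other 9 mice, at a log2 fold change for diabetes of −1.04 ± 0.34 that did not pass (limma adjusted p = 0.0554). That gene was among the less abundant members, at 32.0 scaled reads per kb.

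For ligand and receptor pairs, the diabetes values with vehicle stood as follows. Cx3cl1 and Tnfrsf12a each passed while the partner, Cx3cr1 and Tnfsf12, did not. For Cxcl12 neither receptor passed, with 0.54 ± 0.18 for Cxcr4 and −0.40 ± 0.27 for Ackr3. Il18, its receptor chain Il18r1 and its soluble inhibitor Il18bp had log2 fold changes of 0.72 ± 0.28, 0.29 ± 0.14 and 0.47 ± 0.20, none of which passed. Il15 and Il15ra were at −0.41 ± 0.14 (limma adjusted p = 0.0604) and −0.19 ± 0.11. Il34 was at 0.10 ± 0.16 and its receptor Csf1r at 0.21 ± 0.17.

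**Figure D3:**
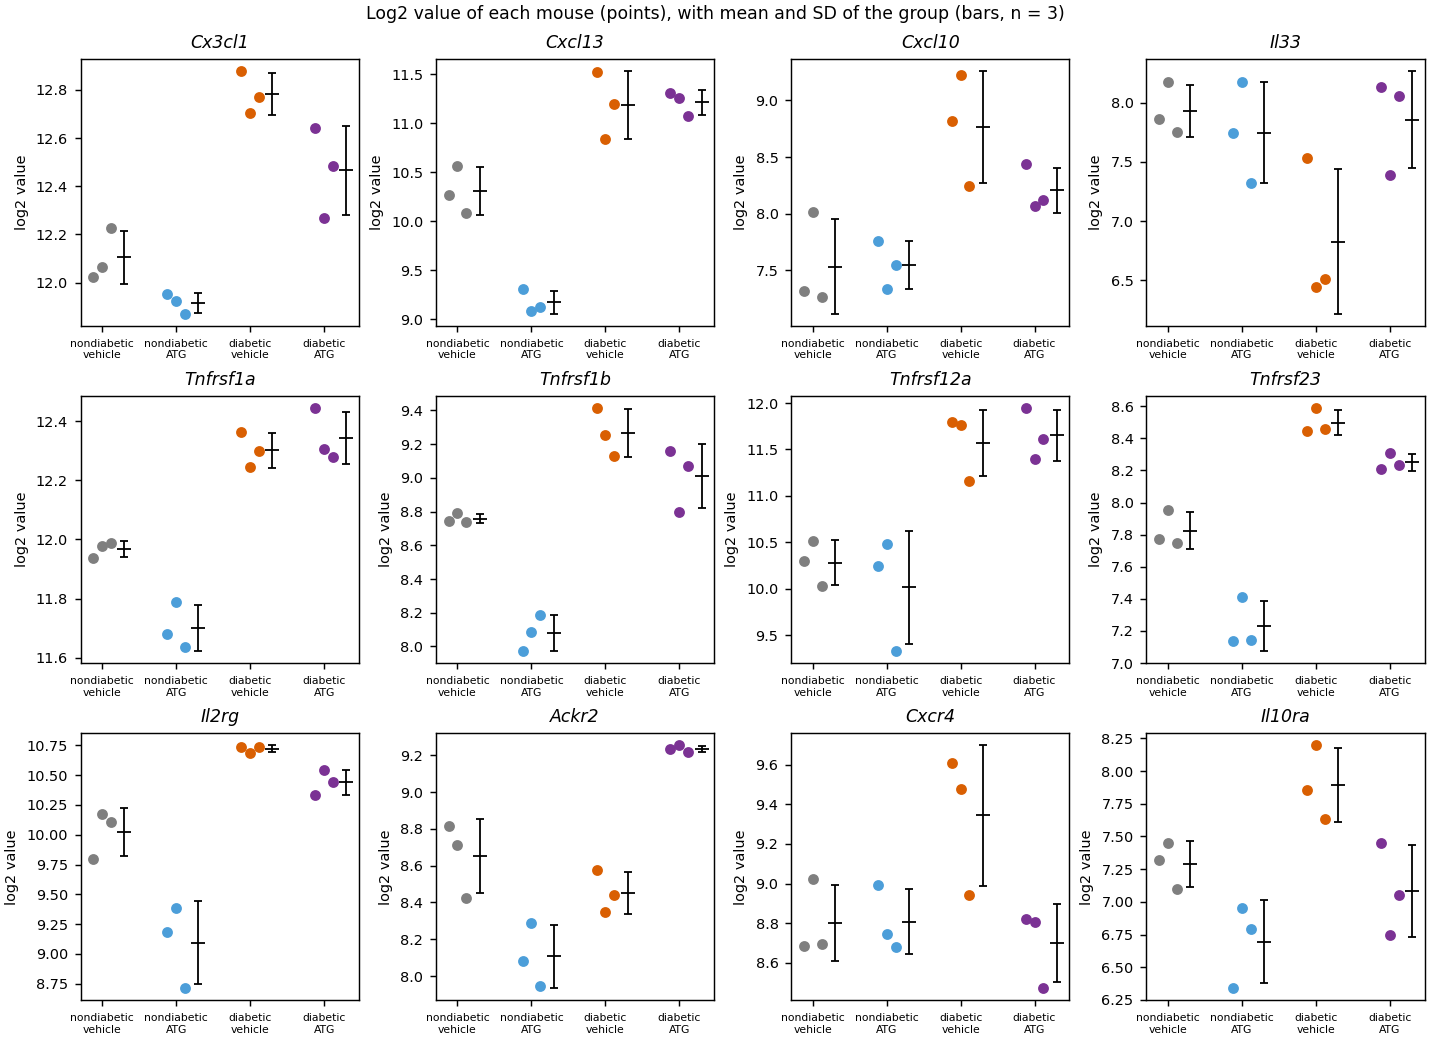
Log2 value of 12 members in each mouse (points) with the group mean and SD (bars, n = 3), groups from left to right being nondiabetic vehicle, nondiabetic ATG, diabetic vehicle and diabetic ATG. The value axis does not start at 0 and differs between panels, and Ackr2 is highest in the 3 ATG-treated diabetic mice, at 9.22 to 9.25.

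Other cytokine genes whose symbols fall outside the pattern were followed as a fixed list, of which 28 of 48 were listed in the files. Of these, 9 rose with diabetes (vehicle), against 10.2% of all genes, and 1 fell, against 8.63%. The one that fell was Cntfr, the ciliary neurotrophic factor receptor, at −0.63 (limma adjusted p = 0.0288). The lowest p belonged to Eda2r, the ectodysplasin A2 receptor of the TNF receptor superfamily and a known p53 target, at 2.15 (limma adjusted p = 0.000119), and to Tgfb1, the fibrogenic growth factor, at 0.78 (limma adjusted p = 0.00282). Csf1, the macrophage growth factor, was at 0.83, and Cd40 and the death receptor Fas were at 0.79 and 0.66. Of 66 listed genes of cytokine signal transduction (69 on the list), 13 rose and 1, the TNF receptor adaptor Traf1, fell (−0.57, limma adjusted p = 0.0442), against the same shares of all genes. Those that rose included Nfkb2 (0.55, limma adjusted p = 0.00375) and Rela (0.33, limma adjusted p = 0.00589), both NF-kB subunits, and Jak3 (0.66, limma adjusted p = 0.00627), the kinase bound to the common gamma chain. The medians of these lists were 0.21 and 0.11, beside 0.0075 over all genes.

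Promoters of cytokine genes are known targets of NF-kB and interferon regulatory factors, so the bases around the starts of the members were read from RefSeq (build GRCm38.p6). Windows of 300 bases, 250 before and 50 from the start on, were found for 59 of the 72 members, and both strands were searched for GGGANNNNCC as an NF-kB motif and for GAAANNGAAA as an interferon-stimulated response element (ISRE). The NF-kB letters were in a window of 16 members (27.1%), beside 22.9% of all 27025 genes with a window, and the ISRE letters in those of 5 members (8.47%), beside 3.99%. Of the 17 DEGs for diabetes with vehicle 15 had a window, of which 4 held either set of letters (Cxcl10, Cxcl13, Tnfrsf1b and Il1f9) and 11 held neither. The sequences are those of 2 of these 11, Cx3cl1 (chr8:94771930-94772179, plus strand), which had the lowest p, and Tnfrsf12a (chr17:23677450-23677699, minus strand), which had the largest rise. Beside them stand 3 of the 4 with a match and Ackr2, the member that passed the interaction test. Cxcl10 (chr5:92348890-92349139, minus strand) held the ISRE letters from −213 to −204 and NF-kB letters from −159 to −150 and from −103 to −94, counted with the base before the start as −1. Cxcl13 (chr5:95956689-95956938, plus strand) held NF-kB letters from −63 to −54 and Ackr2 (chr9:121898105-121898354, plus strand) from −224 to −215, the latter on the opposite strand. Tnfrsf1b (chr4:145246871-145247120, minus strand) held ISRE letters on the opposite strand from −10 to −1. A match describes the letters of the window only. The 250 bases before each start are given 5′ to 3′ along the gene's strand, with matches in capitals.
Cx3cl1: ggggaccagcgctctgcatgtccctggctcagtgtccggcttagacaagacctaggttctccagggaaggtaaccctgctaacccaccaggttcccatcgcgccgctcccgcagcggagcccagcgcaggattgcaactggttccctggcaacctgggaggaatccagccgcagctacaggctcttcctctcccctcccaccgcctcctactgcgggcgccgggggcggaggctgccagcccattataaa
Tnfrsf12a: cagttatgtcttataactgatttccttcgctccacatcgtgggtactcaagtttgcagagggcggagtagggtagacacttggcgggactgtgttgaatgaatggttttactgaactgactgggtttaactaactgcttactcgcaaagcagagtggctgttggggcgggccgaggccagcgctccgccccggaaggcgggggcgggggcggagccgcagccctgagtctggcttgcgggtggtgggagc
Cxcl10: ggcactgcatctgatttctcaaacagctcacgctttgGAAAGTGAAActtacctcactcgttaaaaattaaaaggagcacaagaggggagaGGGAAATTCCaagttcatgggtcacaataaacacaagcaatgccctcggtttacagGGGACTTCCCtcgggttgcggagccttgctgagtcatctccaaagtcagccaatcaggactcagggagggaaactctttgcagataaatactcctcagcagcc
Cxcl13: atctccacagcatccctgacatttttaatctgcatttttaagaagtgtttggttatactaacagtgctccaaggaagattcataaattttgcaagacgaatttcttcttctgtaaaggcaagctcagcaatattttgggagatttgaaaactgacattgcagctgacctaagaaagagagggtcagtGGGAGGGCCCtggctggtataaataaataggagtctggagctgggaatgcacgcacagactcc
Tnfrsf1b: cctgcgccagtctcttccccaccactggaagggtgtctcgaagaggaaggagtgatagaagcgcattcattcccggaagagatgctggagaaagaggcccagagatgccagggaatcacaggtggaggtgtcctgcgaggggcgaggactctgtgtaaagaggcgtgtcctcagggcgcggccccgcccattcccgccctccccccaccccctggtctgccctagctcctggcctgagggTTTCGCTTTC
Ackr2: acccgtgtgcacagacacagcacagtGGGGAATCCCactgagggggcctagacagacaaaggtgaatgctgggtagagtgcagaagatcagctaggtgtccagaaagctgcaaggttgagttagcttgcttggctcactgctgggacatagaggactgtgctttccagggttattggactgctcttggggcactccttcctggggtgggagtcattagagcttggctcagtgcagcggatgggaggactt

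Marker mRNAs of several cell types moved with the groups. All 25 podocyte markers were listed, and their mean log2 value was between 12.94 and 14.50 in the 12 mice. Of 42 tubule markers, 27 fell with diabetes (vehicle) and none rose, and their mean per mouse was 11.89 to 12.38 in vehicle-treated nondiabetic, 12.54 to 13.10 in ATG-treated nondiabetic, 10.08 to 11.38 in vehicle-treated diabetic and 10.81 to 11.37 in ATG-treated diabetic mice. Over all genes 10.2% rose and 8.63% fell in that comparison. Endothelial markers rose in 10 of 25 cases and podocyte markers in none of 25, while 2 of 19 mesangial and smooth muscle markers rose and 4 fell. Among 35 listed leukocyte markers, 11 rose and 1 fell. The linear values of these summed to between 19312 and 27347 in vehicle-treated nondiabetic, 14823 and 19612 in ATG-treated nondiabetic, 25877 and 36498 in vehicle-treated diabetic and 18283 and 29208 in ATG-treated diabetic mice. Of that list, the T- and B-cell markers Cd3e, Cd3d, Cd3g, Cd4, Cd8a, Cd79a, Cd79b and Ms4a1 are not analysed here. In bulk RNA fewer cells of a type and less RNA per cell cannot be told apart.

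**Figure D4:**
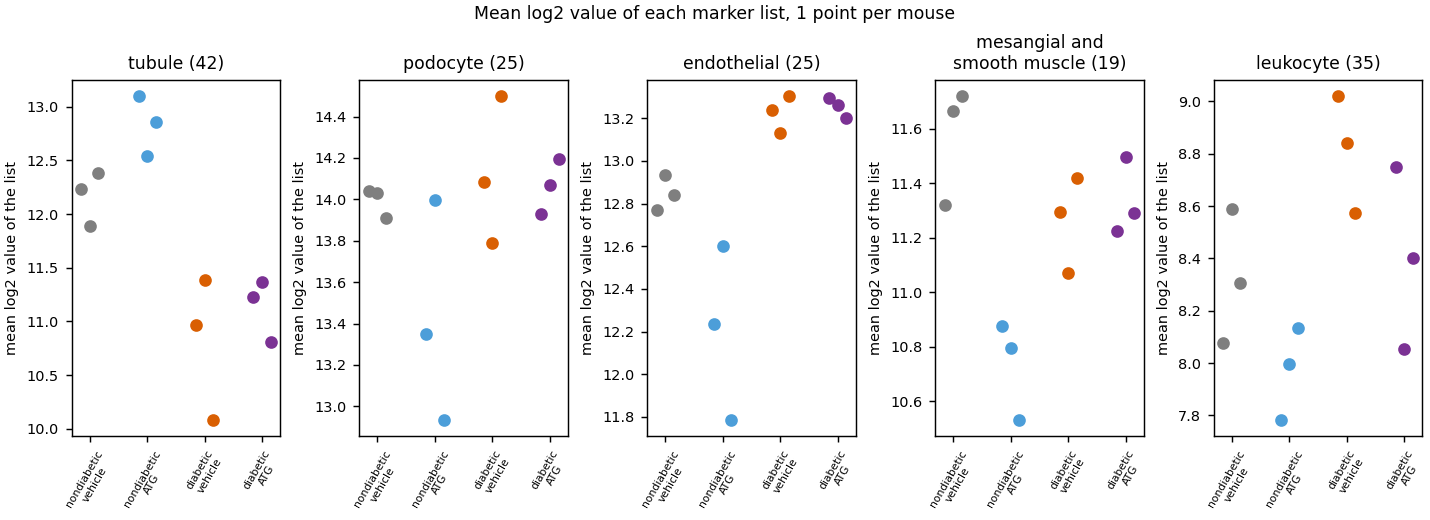
Mean log2 value of 5 marker lists in each mouse (points), by group, with the number of listed genes in the panel title. The value axis does not start at 0 and differs between panels. The tubule mean is highest in ATG-treated nondiabetic mice (12.54 to 13.10) and lower in diabetic mice (10.08 to 11.38).

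Vehicle- and ATG-treated diabetic mice were compared to ask whether ATG altered these genes in diabetes. No member was a DEG, and neither was any of all 14096 genes (0%). At an unadjusted p under 0.05 there were 11 members (15.3%), against 4.51% of all genes, of which 9 were lower (12.5%, against 2.81%) and 2 higher (2.78%, against 1.70%) with ATG. The lower ones were Cx3cl1, Cxcr4, Il10ra, Tnfsf10, Il1r1, Tnfrsf23, Tnfrsf1b, Ccl9 and Il1b, and the higher ones Ackr2 and Il33. In limma-voom on the reads rounded from the linear values the number of DEGs among the members was likewise 0. ATG- and vehicle-treated diabetic mice did not overlap for 12 members (16.7%, against 10.2% of all genes), 11 of them lower (15.3%, against 6.32%) and 1 higher with ATG (1.39%, against 3.85%). The median log2 fold change was −0.045 over the members and −0.0051 over all genes.

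The lowest p for ATG in diabetic mice belonged to Ackr2 (chromosome 9, 121898355 to 121911075), the D6 receptor, which degrades inflammatory CC chemokines and is known from lymphatic endothelium. Ackr2 was 8.81, 8.71 and 8.43 in vehicle-treated nondiabetic mice, 8.08, 8.29 and 7.95 in ATG-treated nondiabetic mice, 8.57, 8.35 and 8.44 in vehicle-treated diabetic mice and 9.23, 9.25 and 9.22 in ATG-treated diabetic mice. The 3 ATG-treated diabetic mice stood close together and above the other 9. The log2 fold change for ATG was 0.78 ± 0.12 (1.72-fold, 95% interval 0.52 to 1.04), which did not pass over all genes (limma adjusted p = 0.248).

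Next by p were Il10ra at −0.81 ± 0.22 and Cxcr4 at −0.64 ± 0.18 (limma adjusted p = 0.917 for both), each with all ATG-treated diabetic mice below all vehicle-treated diabetic mice. Cx3cl1 was at −0.32 ± 0.09 and Il33 at 1.03 ± 0.32, with adjusted p of 0.917 and 0.973 in limma. Il33 overlapped between these groups because vehicle-treated replicate 1, at 7.53, lay above ATG-treated replicate 2, at 7.39. Tnfrsf1a, Tnfrsf12a and Cxcl13 differed by 0.04 ± 0.07, 0.08 ± 0.28 and 0.03 ± 0.17, with 95% intervals of −0.10 to 0.18, −0.54 to 0.69 and −0.34 to 0.39. Cxcl10 was at −0.56 ± 0.26 (95% interval −1.13 to 0.012). The vehicle-treated diabetic mice enter both this comparison and the one for diabetes, so the 2 sets of values are not independent. Leukocyte markers had a median log2 fold change of −0.51 with ATG in these mice, none of them a DEG, and their part in these values was not tested.

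**Figure D5:**
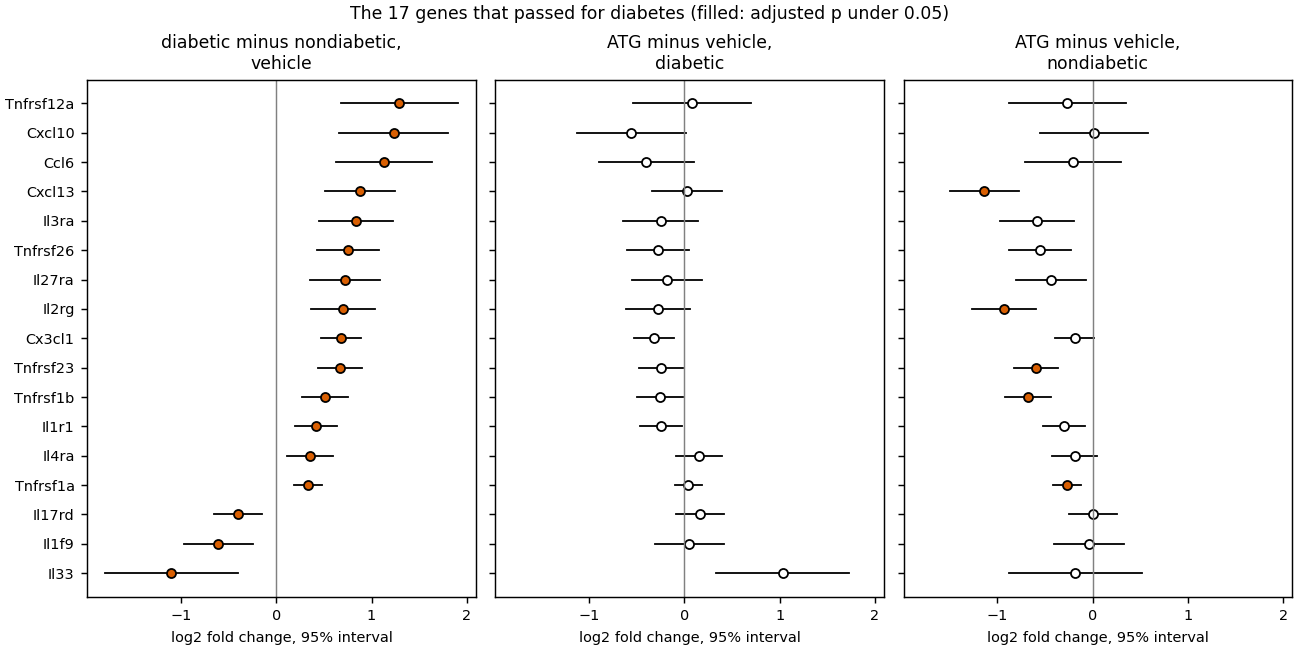
Log2 fold change with 95% interval for the 17 members that were DEGs for diabetes with vehicle, in that comparison (left), for ATG in diabetic mice (middle) and for ATG in nondiabetic mice (right). Filled points passed at an adjusted p under 0.05: all 17 on the left, which chose them, none in the middle and 5 on the right, namely Cxcl13, Il2rg, Tnfrsf23, Tnfrsf1b and Tnfrsf1a.

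In nondiabetic mice ATG came with lower values of 8 members (11.1%), against 5.22% of all genes in either direction and 4.51% lower, and no member rose, against 0.709%. Cxcl13 fell by 1.14 ± 0.17 (limma adjusted p = 0.00825), with all 3 ATG-treated mice, at 9.09 to 9.31, below all vehicle-treated mice, at 10.09 to 10.57. Of the receptors 7 fell, namely Il2rg by 0.93 ± 0.15 (limma adjusted p = 0.0105), Tnfrsf1b by 0.68 ± 0.11 (limma adjusted p = 0.0103), Tnfrsf23 by 0.60 ± 0.10 (limma adjusted p = 0.0138), Tnfrsf11b by 0.77 ± 0.19, Ackr2 by 0.54 ± 0.12, Il10rb by 0.45 ± 0.11 and Tnfrsf1a by 0.27 ± 0.07. The median was −0.22 over the members and −0.039 over all genes, with 56 of 72 members negative. Of the other cytokine genes Tgfb1, Csf1 and Osmr (the oncostatin M receptor) fell, and of the signal transduction genes 5 fell, Nfkb1, Stat6, Tnip2, Traf3 and Birc3.

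Markers of several cell types moved in the same mice. With ATG in nondiabetic mice 10 of 25 endothelial, 11 of 19 mesangial and smooth muscle, 1 of 25 podocyte and 1 of 35 leukocyte markers fell, against 4.51% of all genes. The median tubule marker was at 0.69, and no tubule marker was a DEG. The count of members was 0 with only the nondiabetic groups in the fit, 0 without both unnumbered mice, 0 with the tubule covariate and 5 with either median-ratio scaling or limma-voom. Leaving out single mice gave 1 member (60 of all genes) without replicate 2 of the vehicle-treated nondiabetic mice. It gave 22 (3531 of all genes) without replicate 2 of the ATG-treated nondiabetic mice. The count was 3 to 5 (127 to 400 of all genes) without replicates 1 or 3 of either nondiabetic group, vehicle-treated diabetic replicate 1 or ATG-treated diabetic replicates 2 or 3.

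Among ATG-treated mice diabetes came with more DEGs than among vehicle-treated mice, for the members and for all genes alike. Of the members 33 (45.8%) were DEGs, against 46.7% of all genes, with 29 (40.3%) higher, against 25.9%, and 4 (5.56%) lower, against 20.8%. Cxcl13 rose by 2.04 ± 0.17 (4.11-fold, limma adjusted p = 5.42e-05), Tnfrsf12a by 1.64 ± 0.28 (limma adjusted p = 0.00128), Tnfrsf19 (TROY) by 1.46 ± 0.30, Il2rg by 1.34 ± 0.15, Il3ra by 1.17 ± 0.18 and Ackr2 by 1.13 ± 0.12. The chemokines Cxcl1, Cxcl12 and Ccl6, the interleukins Il18, Il34 and Il11, the TNF ligands Tnfsf12 and Tnfsf15 and the receptors Ccr2, Il23r, Il1rap, Il6st, Tnfrsf11b and Tnfrsf22 were higher as well, by 0.31 to 1.08. The remaining higher ones were Cx3cl1, Il10rb, Il1r1, Il27ra, Il4ra, Tnfrsf1a, Tnfrsf1b, Tnfrsf23 and Tnfrsf26, by 0.47 to 1.03. Ccl28 (a mucosal chemokine) fell by 1.08 ± 0.33, Il1f9 by 0.52 ± 0.17, Il15 by 0.42 ± 0.14 and Il17ra (the IL-17 receptor) by 0.37 ± 0.11. In the same comparison 38 of 42 tubule markers were lower and 24 of 25 endothelial, 12 of 19 mesangial and smooth muscle, 8 of 25 podocyte and 13 of 35 leukocyte markers higher, with 1 mesangial and smooth muscle and 1 leukocyte marker lower, and their part in the counts was not tested further than by the tubule covariate. With that covariate 1 member, Cxcl13, was a DEG, while the count over all genes went from 6585 to 118. The log2 fold changes of Cxcl12, Il6st, Tnfrsf22 and Il17ra turned direction with the covariate, to −0.40, −0.19, −0.075 and 0.015.

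Whether the ATG effect differed between diabetic and nondiabetic mice was tested as an interaction. Ackr2 was the only member to pass (1.39%), against 0.546% of all genes in either direction and 0.539% in its own. Its ATG effect was 1.33 ± 0.17 higher in diabetic than in nondiabetic mice (95% interval 0.96 to 1.70, limma adjusted p = 0.0126), being 0.78 ± 0.12 in the former and −0.54 ± 0.12 in the latter. Over 20 alternatives the difference ranged from 1.25 to 1.44 with adjusted p of 0.00617 to 0.0662. It passed in 17 of them and missed without vehicle-treated nondiabetic replicate 2 (limma adjusted p = 0.0662), without ATG-treated diabetic replicate 2 (limma adjusted p = 0.0622) and without ATG-treated diabetic replicate 3 (limma adjusted p = 0.0563). Cxcl13 came next, at 1.16 ± 0.23 (limma adjusted p = 0.0583). The largest positive value belonged to Ackr4, at 1.41 ± 0.48, which did not pass (limma adjusted p = 0.257). Without replicate 2 of the ATG-treated nondiabetic mice, 7 members passed, while the count over all genes went from 77 to 770. The median of the same difference was 0.97 over the mesangial and smooth muscle markers (3 passed, all higher), 0.61 over the endothelial markers (1 passed, Sox17) and 0.52 over the podocyte markers (1 passed, Pla2r1), and their part in the Ackr2 value was not tested. With the tubule covariate Ackr2 still passed.

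The libraries held 23.6 to 29.8 M (mega) reads on the genes of the tables. The first part of the labels' titles differs between groups, so a preparation batch that it may name cannot be told apart from the group. Nothing in the labels says how litters or cages were spread over the groups. Each p-value sets a group difference against the spread between these mice, estimated over the 4 groups and drawn toward a trend over all genes.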

How the data were processed

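Poly(A)-selected mRNA of glomeruli from 12 mice was sequenced by the study. Per the labels, the submitters' processing notes name the mm10 build and limma, while the aligner and the counting are not given in the sources used here. The labels' treatment protocol also describes digestion and sorting of cells by a fluorescent protein, which the study's methods do not mention, and the libraries are treated here as whole glomeruli. For each mouse the authors deposited log2 values of 14096 genes. Every gene has a linear value of 100 or more in some mouse. Converted to the linear scale, 83.4% to 84.0% of the values below 2000 reads lay within 0.02 reads of a whole multiple of 1 step per library, and values divided by the step and rounded were used as reads, which are approximate for the others.

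The deposited log2 values were tested with limma 3.58.1 in R 4.3.3 (lmFit, eBayes with a trend), and figures were drawn with Python 3.11.15 and matplotlib 3.10.9. The design had named a count test in case the files held counts. The script was tested on simulated data. Members, lists, comparisons and alternatives were chosen with earlier results of these data known. Named are all members passing in any comparison. The value of every mouse is given for the 4 members with the lowest p per direction for diabetes with vehicle, for the 3 with the lowest p in each other comparison, for the 5 most abundant ligands and receptors and for a fixed list of genes with known roles, 21 of whose 27 are listed. Positions are those of the RefSeq gene table for GRCm38.p6, matched on Entrez identifiers (72 of 72), and 71 of these overlapped the deposited positions. Il18bp was counted with the ligands and decoy receptors with the receptors. Gene pairs with similar sequence (Tnfrsf22, Tnfrsf23 and Tnfrsf26, Il11ra1 and Il11ra2, and Ccl21c with its copies) may share reads, and 1 gene that matches the symbol pattern is not reported here. Alternatives were a minimum of 10 reads, only the groups compared, the replicate number as a block, single mice or both unnumbered mice left out, no trend, an adjusted p under 0.1, median-ratio scaling, limma-voom on these rounded reads, and the tubule covariate.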

Additional observations from a re-analysis of the deposited data

Results flagged for a closer look

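The ATG effect on Ackr2 differed between diabetic and nondiabetic mice by 1.33 on the log2 scale (limma interaction, adjusted p = 0.0126), as the test of the difference itself showed. In nondiabetic mice each ATG-treated mouse lay below each vehicle-treated mouse, and in diabetic mice each lay above. Groups of 3 mice were not searched for single outlying mice.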

How the results depend on the processing

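Counts of members called changed with several choices. For diabetes with vehicle (17 members, 2659 of all genes), the count was 27 at an adjusted p under 0.1 (4136 of all genes). It was 1 with the tubule covariate (453 of all genes) and 7 to 22 with single mice left out (801 to 3357 of all genes). For ATG in nondiabetic mice (8 members, 736 of all genes), it was 0 with only the groups compared (0 of all genes). It was 0 without both unnumbered mice (8 of all genes), 0 with the tubule covariate (47), 5 with median-ratio scaling (537) and 5 with limma-voom (538). It was 18 at an adjusted p under 0.1 (2145 of all genes) and 1 to 22 with single mice left out (60 to 3531 of all genes). For diabetes with ATG (33 members, 6585 of all genes), it was 1 with the tubule covariate (118 of all genes). With single mice left out it was 23 to 36 (4766 to 7451 of all genes). For the interaction (1 member, 77 of all genes), it was 2 at an adjusted p under 0.1 (215 of all genes). With single mice left out it was 0 to 7 (6 to 770 of all genes). For ATG in diabetic mice it was 0 under every alternative run, as was the count over all genes. Values that turned direction with the tubule covariate, all for diabetes with ATG, were Cxcl12 (−0.40), Il6st (−0.19), Tnfrsf22 (−0.075) and Il17ra (0.015). The causes were not tested.

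Whether the replicate numbers pair the mice could not be decided from so few mice per group. Deviations of same-numbered mice correlated at 0.315, 0.0537 and 0.339 between the diabetic groups and at −0.0254 and −0.257 between the vehicle-treated groups. They correlated at −0.0473 and 0.254 between the nondiabetic groups and at 0.178 and 0.0355 between the ATG-treated groups. Between the diabetic groups most mice correlated best with their own number, and between the vehicle-treated groups the same-numbered mice did not. With the replicate block 12 members were called for diabetes with vehicle (1375 of all genes) and 20 for diabetes with ATG (4422 of all genes). There were 7 for ATG in nondiabetic mice (946 of all genes), 1 for the interaction (8) and 0 for ATG in diabetic mice (0). The interaction uses all groups, so it was not run with only the groups compared.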

Other observations

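Of the 72 members, 36 passed in no comparison. Among the abundant ones were Il11ra1, the IL-11 receptor, and Il13ra1, a chain shared by the IL-4 and IL-13 receptors, both at 956 scaled reads per kb. Il11ra1 had log2 fold changes of −0.09 ± 0.06 for diabetes with vehicle and 0.01 ± 0.06 for ATG in diabetic mice. For diabetes with ATG it was at −0.13 ± 0.06 (limma adjusted p = 0.105), with every ATG-treated diabetic mouse below every ATG-treated nondiabetic mouse, and it passed under 2 of 21 alternatives, median-ratio scaling and limma-voom. Il13ra1 had a log2 fold change of 0.07 ± 0.15 for diabetes with vehicle. Il17rc, a chain of the IL-17 receptor, was at −0.0023 ± 0.06 for diabetes with vehicle, beside −0.40 ± 0.11 for Il17rd, which passed.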
